A study of Mus musculus with 4 samples.

Results

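The genes described here are 10 hormone receptors and transcription regulators of the luminal lineage of the mammary gland: Esr1, Pgr, Prlr, Stat5a, Gata3, Foxa1, Elf5, Ehf, Cited1 and Tbx3. They were chosen by name, as the non-control probes whose array gene name was 1 of these symbols. Of the 10 symbols, 8 had such a probe, with 9 probes in all because Esr1 had 2. Prlr and Tbx3 had no probe under those names among the rows used. Of the 8 genes, 7 (8 probes) were kept among 32653 genes or transcripts, the condition being a spot that exceeded background clearly in either channel on 2 or more arrays. Pgr was not kept.

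The tumours came from mammary glands of female FVB/N mice aged 26 weeks and were of early stage T1. Of these, 2 carried MMTV-cdc25a together with MMTV-neu (Cdc25a;neu) and 2 carried MMTV-neu alone (neu), so the neu transgene, a form of the receptor tyrosine kinase gene Erbb2, was common to both genotypes. Both transgenes are driven by the MMTV promoter, which is active chiefly in mammary epithelium, and each tumour is a single mouse. Each Cdc25a;neu tumour was hybridised with 1 neu tumour (pair 1 and pair 2), 2 times with the dyes swapped, giving 4 two-colour arrays. All ratios are log2 of Cdc25a;neu over neu. The comparison asks what Cdc25a overexpression adds to neu tumours.

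The luminal layer of the mammary epithelium holds hormone-sensing and secretory cells. Hormone-sensing cells carry the estrogen receptor (Esr1), the progesterone receptor (Pgr) and the prolactin receptor (Prlr), and pass hormone signals to their neighbours. Prolactin acts through the kinase JAK2 on STAT5A, which enters the nucleus and switches on milk protein genes. Gata3 maintains luminal identity, Foxa1 opens chromatin for the estrogen receptor, and the ETS factor Elf5 drives the secretory alveolar fate.

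In pair 1 the Cdc25a;neu tumour had more Stat5a and Esr1 signal than its neu partner, and in pair 2 it had less. Stat5a was 1.67-fold higher in pair 1 and 2.08-fold lower in pair 2. Esr1, read by the brighter of its probes, was 1.58-fold higher in pair 1 and 1.98-fold lower in pair 2, and its other probe did not follow. Gata3 was 2.10-fold lower in pair 2 and 1.17-fold higher in pair 1. Elf5, Ehf and Cited1 lay within 0.5 log2 units of equality in both pairs, as did 92.0% of all genes. Foxa1 was measured above background in the Cdc25a;neu channel only, so its ratio is a bound. None of the 7 genes passed the test.

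The promoters of Stat5a, Gata3 and Esr1 are shown because these genes had the largest pair ratios, and for Esr1 the start is the one whose window holds the motif searched. Each run is the 250 bases before an annotated start in the RefSeq promoter table of GRCm38.p6, in the direction of the gene. The Stat5a window, before its start 1, is chr11:100859406-100859655 on the + strand. Stat5a also has a start 2, whose window holds no match to the motif and is not printed. The Gata3 window is chr2:9878601-9878850 on the - strand, and the Esr1 window, before its start 2, is chr10:4709908-4710157 on the + strand. Capitals mark a match to TTCNNNGAA, the core of the STAT5 binding sequence, which reads the same on both strands.
Stat5a: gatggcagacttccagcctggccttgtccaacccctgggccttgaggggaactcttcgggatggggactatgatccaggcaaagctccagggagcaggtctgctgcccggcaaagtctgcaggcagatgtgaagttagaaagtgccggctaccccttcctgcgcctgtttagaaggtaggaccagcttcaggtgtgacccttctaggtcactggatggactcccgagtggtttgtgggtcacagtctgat
Gata3: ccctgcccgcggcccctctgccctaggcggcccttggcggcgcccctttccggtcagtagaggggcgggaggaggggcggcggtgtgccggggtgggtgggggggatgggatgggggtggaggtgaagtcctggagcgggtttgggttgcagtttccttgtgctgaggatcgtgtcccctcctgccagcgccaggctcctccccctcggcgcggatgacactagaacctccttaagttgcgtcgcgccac
Esr1: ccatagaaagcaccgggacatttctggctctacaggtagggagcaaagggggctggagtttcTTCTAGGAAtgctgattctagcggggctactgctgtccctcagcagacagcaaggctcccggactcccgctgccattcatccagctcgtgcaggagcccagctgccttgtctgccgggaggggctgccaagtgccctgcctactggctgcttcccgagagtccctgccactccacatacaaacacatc

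The table held 15 windows for 8 of the 10 genes, and Ehf and Tbx3 were not among them. TTCNNNGAA was found in 2 of the 15, before Esr1 start 2 and before a start of Prlr. Among all 32851 windows of that length, 7.02% held it. AGATAA, a sequence bound by GATA factors, was sought on both strands and found in 0 of the 15 windows and in 9.99% of all windows. These are matches of letters in a short window and describe no binding.

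Esr1 encodes the estrogen receptor alpha. Its brighter probe, placed on the cDNA clone E230030D02, gave log2 ratios of 0.85 and 0.48 on the arrays of pair 1, whereas those of pair 2 read -1.03 and -0.93. The dye orientations thus gave the same sign within each pair, and the pairs gave opposite signs. The log2 signals were 8.44 in Cdc25a;neu tumour 1 and 8.40 in neu tumour 2, against 7.78 in neu tumour 1 and 7.42 in Cdc25a;neu tumour 2. The higher tumours were 1 of each genotype, and so were the lower ones. The upper tumours overlapped in their Cy3 and Cy5 readings, while the lower ones did not overlap with any other tumour. The mean ratio was -0.16 ± 1.16 (SD, n = 2 pairs), with a 95% interval of -1.84 to 1.52 and an adjusted p of 0.935 (limma).

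The dimmer Esr1 probe, placed on the RefSeq transcript NM_007956, gave pair 1 ratios of -0.02 and 0.17, and pair 2 ratios of 0.16 and 0.11. Its pair ratios were 0.08 and 0.13, and its log2 signals in the tumours spanned 7.05 to 7.44. The opposite ratios of the pairs were therefore seen with 1 of the Esr1 probes only. Both probes were well above background in both channels on all 4 arrays, and which of them follows the Esr1 transcript was not tested.

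Pgr encodes the progesterone receptor, itself a classical estrogen receptor target. Its probe was not well above background in either genotype on any array. Its green signal was 58.5 to 62.1 and its red signal 65.8 to 68.4, where the local background was 38 to 44 and 61 to 62. A further probe named PR on the array, an older name of Pgr in RefSeq, was not well above background on any array either. No ratio is given for Pgr, since a spot at background gives only a bound.

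The prolactin receptor was read only through probes that the rule did not take. AI987712, an older symbol that the RefSeq table assigns to Prlr, had 2 probes. The first gave 0.01 in pair 1 and -0.24 in pair 2, and the brighter one gave -0.23 in pair 1 and -0.65 in pair 2, below 0 on all 4 arrays. A probe that the array describes as prolactin receptor precursor (NP057468) gave -0.05 and 0.03. In pair 2 the array values of these 3 probes did not overlap, so no single Prlr ratio can be given. Tbx3, a T-box factor needed for mammary bud formation, matched by accession only the clone E030029C02, with a ratio of -0.37 in pair 1 and 0.26 in pair 2.

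Stat5a had the widest range over the tumours of the 7 genes, at 1.29 log2 units. The arrays of pair 1 gave 0.95 and 0.53, those of pair 2 gave -1.29 and -0.83. Its log2 signals were 11.32 in Cdc25a;neu tumour 1, 11.09 in neu tumour 2, 10.58 in neu tumour 1 and 10.03 in Cdc25a;neu tumour 2. The Cdc25a;neu tumours were therefore the highest and the lowest of the 4. Cdc25a;neu tumour 2 lay 0.55 below the next tumour, and its readings in both dyes were below every reading of the others. The mean ratio was -0.16 ± 1.27 (SD, n = 2 pairs), with a 95% interval of -2.001 to 1.679 and an adjusted p of 0.941 (limma).

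Gata3 encodes a zinc finger factor required for luminal differentiation. The arrays of pair 1 gave 0.46 and -0.005, those of pair 2 gave -1.04 and -1.10. The log2 signals were 12.84 in neu tumour 2, 12.17 in Cdc25a;neu tumour 1, 11.95 in neu tumour 1 and 11.77 in Cdc25a;neu tumour 2. Neu tumour 2 stood 0.67 above the next tumour, and the readings of the other neighbours in this order overlapped. The mean ratio was -0.42 ± 0.92 (SD, n = 2 pairs), with a 95% interval of -1.75 to 0.91 and an adjusted p of 0.761 (limma). The positive ratio in pair 1 came from 1 array, and without that array the pair 1 value was -0.005.

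**Figure D1:**
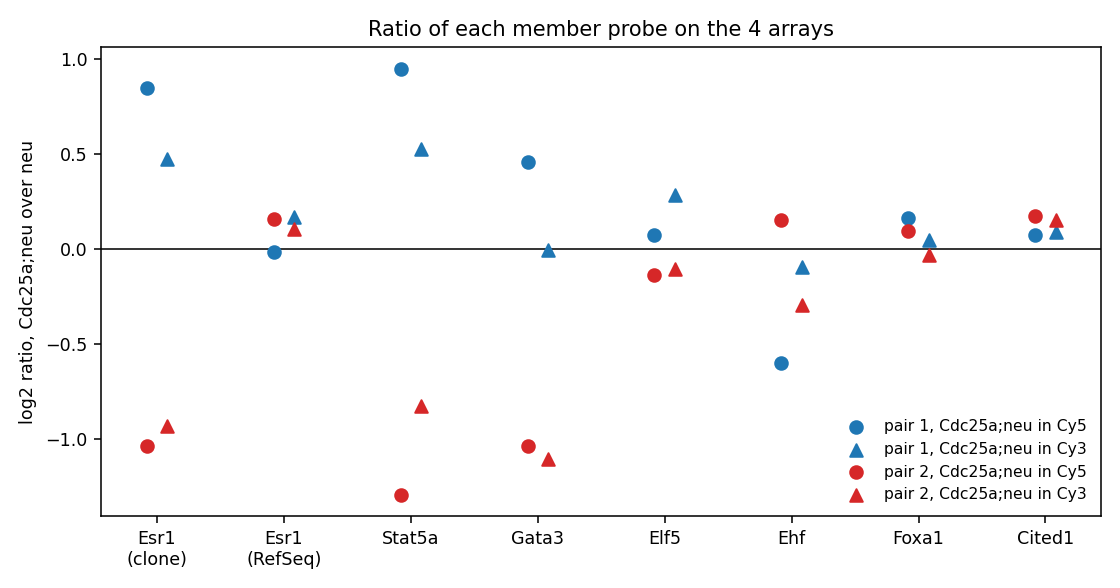
Log2 ratio (Cdc25a;neu over neu, vertical axis) of each kept probe of the luminal genes on each of the 4 arrays; colour gives the pair and shape the dye of the Cdc25a;neu tumour. Stat5a and the Esr1 clone probe lie above 0 in pair 1 and below 0 in pair 2 in both dye orientations, while Cited1 stays between 0.07 and 0.17.

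Elf5 was nearly level. Pair 1 gave 0.07 and 0.28 and pair 2 gave -0.13 and -0.10 on single arrays, and its log2 signals were 11.01 and 10.75 in the Cdc25a;neu tumours and 10.83 and 10.87 in the neu tumours. On average Elf5 had 0.03 ± 0.21 (SD, n = 2 pairs; 95% interval -0.31 to 0.37, limma adjusted p = 0.942). The sign of that mean was negative, at -0.023, without the second array of pair 1.

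Ehf is an epithelial ETS factor, separated from Elf5 on chromosome 2 by 2 long non-coding RNA genes and no protein-coding gene in RefSeq. Pair 1 gave -0.60 and -0.09 and pair 2 gave 0.15 and -0.29, so the dye orientations differed by more than the pairs did. Its log2 signals were 8.05 in neu tumour 1, 7.70 in Cdc25a;neu tumour 1, 7.64 in neu tumour 2 and 7.57 in Cdc25a;neu tumour 2, and the last 3 overlapped in their readings. The Ehf mean was -0.21 ± 0.19 (SD, n = 2 pairs; 95% interval -0.53 to 0.11, limma adjusted p = 0.589). Single arrays decided its size: the mean was -0.082 without the first array of pair 1, -0.34 without the second, and -0.32 and -0.098 without the first and second of pair 2. The pair 2 value was 0.15 without the second array of that pair and 0.04 with median centring, so its sign was not settled.

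Further Ehf probes under other array names did not agree among themselves. BC005520, which the array describes as Ehf, read 0.24 and 0.02 on the pair 1 arrays, against -0.84 and -1.08 on the pair 2 arrays. NAP048862-1, matched by accession, gave pair ratios of -0.01 and 0.04. The BC005520 signal was highest in neu tumour 2, at 9.01 against 8.05 to 8.52 in the other tumours.

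Foxa1 was at the edge of detection. The Cdc25a;neu channel was well above background on 3 of 4 arrays, the neu channel on 0 of 4. Pair 1 gave 0.16 and 0.05 and pair 2 gave 0.09 and -0.03, and the log2 signals in the tumours spanned 6.06 to 6.22. The mean log2 signals were 6.15 in Cdc25a;neu and 6.08 in neu tumours. With each neu reading raised to the lowest signal well above background on its array, Foxa1 came to 1.04-fold higher in Cdc25a;neu tumours. That figure is only rough, since the Cdc25a;neu channel was itself not well above background on every array. The adjusted p of 0.705 (limma) belongs to the ratio as measured. The value depended on the processing: the mean log2 ratio was 0.07 as measured, -0.037 with median centring in place of loess, 0.26 with the scanner's processed signals, 0.25 with its log ratio and 0.46 with the authors' deposited table of values. Under the last 3 the pair 1 ratio was 0.55, 0.54 and 0.59, beyond 0.5. Its direction was therefore not settled.

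Cited1 encodes a transcriptional co-activator that binds the estrogen receptor. It was the only 1 of the 7 genes with the same sign on all 4 arrays, with 0.07 and 0.09 from pair 1, and 0.17 and 0.15 from pair 2. That pattern, Cdc25a;neu higher on all 4 arrays, was held by 14.7% of all genes, so 1 of 7 (1 of 6 without Foxa1) is near the background. With median centring in place of loess, 0 of 7 genes had the same sign on all 4 arrays. The log2 signals were 9.77 in Cdc25a;neu tumour 2, 9.61 in neu tumour 2, 9.42 in Cdc25a;neu tumour 1 and 9.34 in neu tumour 1, with no overlap between the readings of different tumours. The tumours of pair 2 were thus both above those of pair 1, by more than the genotypes differed within a pair. The mean ratio was 0.12 ± 0.06 (SD, n = 2 pairs; 95% interval -0.05 to 0.29), and its limma adjusted p of 0.572 was the lowest among the 7 genes.

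**Figure D2:**
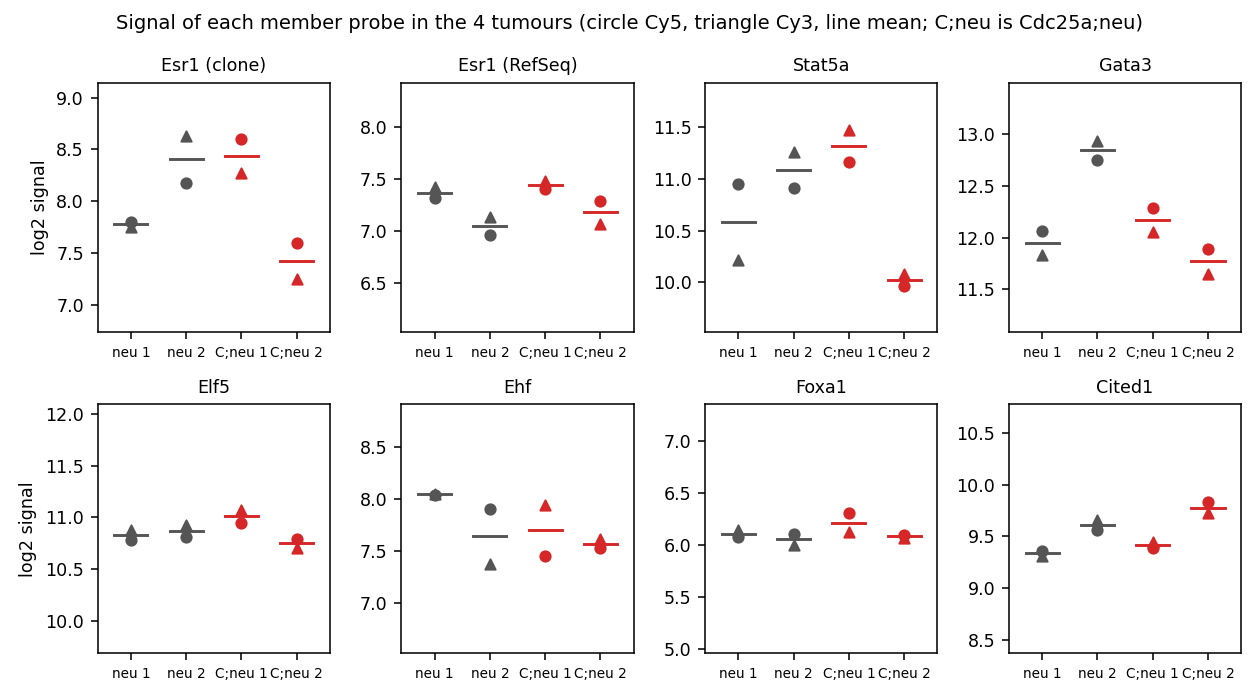
Log2 signal (vertical axis, each panel of equal height) of each kept probe in the 4 tumours, with circles for the Cy5 reading, triangles for the Cy3 reading and a line for their mean. Cdc25a;neu tumour 2 is lowest for the Esr1 clone probe and for Stat5a, neu tumour 2 is highest for Gata3, and no gene separates the genotypes.

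Foxa1 is counted among the 7 genes below, and the counts without it are over 6. Read over the set, 0 of the 7 genes had an adjusted p under 0.05 by limma, as did 0% of all genes, whose smallest adjusted p by limma was 0.222. Without adjustment, a p under 0.05 was reached by 0 of 7 genes, against 9.65% of all genes. With 2 pairs an exact test turning the signs cannot go below 0.5, so no such test was used. In 0 of 7 genes did the tumours of a genotype lie wholly above or below those of the other, against 19.8% of all genes (8.65% with Cdc25a;neu higher and 11.2% with it lower). Without Foxa1, 0 of 6 genes met each of these conditions. The median ratio of the 7 was 0.18 in pair 1 and -0.12 in pair 2, and without Foxa1 it was 0.20 and -0.55, while over all genes both medians were 0.0050. The -0.55 is the midpoint between Elf5, at -0.12, and the Esr1 clone probe, at -0.98, and no member lay between them. It thus rests on the clone probe, as the other Esr1 probe gave 0.13 in pair 2.

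Where the pairs differed in sign, pair 1 had the higher ratio. Of the 7 genes, 4 (Esr1, Stat5a, Gata3 and Elf5) were higher in pair 1 and lower in pair 2, against 20.3% of all genes; signs differed between the pairs in 40% of all genes. The reverse order on both arrays of each pair was seen in 0 of 7, against 7.59%. With the same sign required on both arrays of each pair, 3 of 7 remained (Esr1, Stat5a and Elf5), against 5.91% of all genes. With at least 0.5 in size in each pair, 2 remained (Esr1 and Stat5a), against 0.0796% of all genes, which is 26 of 32653. Of the 7 genes, 3 were lower by at least 0.5 in pair 2, against 2.90%. In 5 of 7 (all but Foxa1 and Cited1) Cdc25a;neu tumour 2 had the lowest signal of the 4, against 28.2%. It lay below the next tumour by 0.55 for Stat5a and 0.36 for Esr1. For Gata3, Elf5 and Ehf it did so by only 0.18, 0.08 and 0.07, with overlapping dye readings. By its other probe Esr1 was lowest in neu tumour 2, at 7.05. Foxa1 was in none of these counts, so over the 6 genes measured in both genotypes they are the same. These counts and the limit of 0.5 were chosen after the values were seen, and the Esr1 count rests on the clone probe. The opposite signs of Elf5 depended on the processing: with median centring in place of loess it had 0.08 in pair 1 and 0.07 in pair 2.

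**Figure D3:**
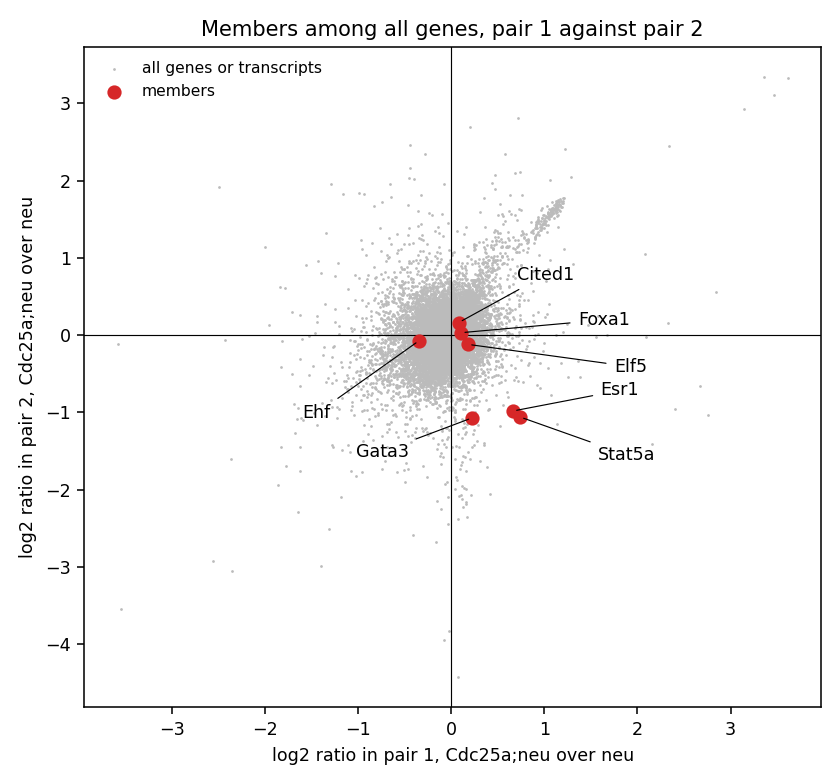
Log2 ratio in pair 1 (horizontal axis) against pair 2 (vertical axis) for all 32653 genes or transcripts (grey) and the 7 luminal genes (red). Stat5a and Esr1 lie at 0.74 and -1.06 and at 0.66 and -0.98, in a sparsely filled region, while Elf5, Ehf, Foxa1 and Cited1 lie within the dense centre.

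The rest of the series gives the background of these values. Over all genes, the turned ratios of the arrays of a pair correlated at 0.649 in pair 1 and 0.759 in pair 2, and arrays of different pairs at 0.209 to 0.373. Per array and channel, 78.5% to 92.2% of spots exceeded background clearly. Cdc25a had 2 probes: the brighter gave 0.05 ± 0.06 (SD, n = 2 pairs, adjusted p = 0.781, limma), and the other gave 0.14 in pair 1 and 0.08 in pair 2. The Erbb2 probe gave 0.65 ± 0.28 (adjusted p = 0.489, limma). No source used here says whether any of these probes reads a transgene's transcript, so Cdc25a is no check of the labels. Of the luminal keratins, Krt8 had log2 signals of 13.79 to 13.96 and Krt18 of 14.30 to 14.61, while Krt7 had 7.55 to 8.19 and Krt19 6.29 to 7.11.

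The tumours differed in markers of other cell types. In neu tumour 2 the summed signal of 10 fat cell markers was 19240, against 7952 in neu tumour 1 and 2977 and 3451 in the Cdc25a;neu tumours. Its sum of 10 skeletal muscle markers was 4853, against 1407 to 1519 in the other tumours. In Cdc25a;neu tumour 2 the sum of 8 macrophage markers was 35660, against 7906 to 10420 elsewhere, carried mostly by Lyz2. Its sum of 9 fibroblast markers was 9149, against 2080 to 5047, and the brightest of them was Col1a1, at a log2 signal of 12.05. Of the 9 fibroblast markers, 3 (Dcn, Lum and Pdgfra) were lower on all 4 arrays, against 12.4% of all genes. The sum of 11 basal and myoepithelial markers in Cdc25a;neu tumour 2 was 16260, against 8173 to 11950, carried mostly by Tagln. Tagln had a pair 2 ratio of 1.40 by its brighter probe and of 0.44 by its other one. The 13 luminal markers summed to 52390 to 54930 in the 4 tumours, but Krt8 and Krt18 made up 69.1% to 73.7% of that sum. Without these 2 keratins it was 13820 in Cdc25a;neu tumour 2 and 15440 to 16210 in the others. Of the 13 luminal markers, 4 were higher and 4 lower in both pairs. The largest mean ratios in size were those of Krt7, with 0.11 and 0.64, and Epcam, with -0.17 and -0.51. The remaining luminal markers differed in sign between the pairs, among them Cldn4 with 0.33 and -0.70 and Krt19 with -0.40 and 0.36. The endothelial list spanned 1489 to 2545 and the lymphocyte list 2368 to 2476. Of the 10 fat cell markers, 6 were lower and 1 higher on all 4 arrays, against 12.4% and 14.7% of all genes. Higher on both arrays of pair 1 and lower on both of pair 2, the order of Stat5a and Esr1, were 3 of 10 muscle, 1 of 13 luminal and 0 of 8 macrophage markers, against 5.91% of all genes. The reverse order was held by 5 of 8 macrophage, 4 of 9 fibroblast and 3 of 13 luminal markers, against 7.59%. Pair 1 gave 0.74 for Stat5a, 0.66 for Esr1 and 0.23 for Gata3, which was positive on 1 of the arrays of that pair only. The tumours of pair 1 also differed in fat cell markers, at 2977 in Cdc25a;neu tumour 1 against 7952 in neu tumour 1. The part of these cell types in the ratios of Stat5a, Esr1 and Gata3 was not tested in either pair. In a whole tumour, fewer cells of a type and less RNA per cell cannot be told apart.

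**Figure D4:**
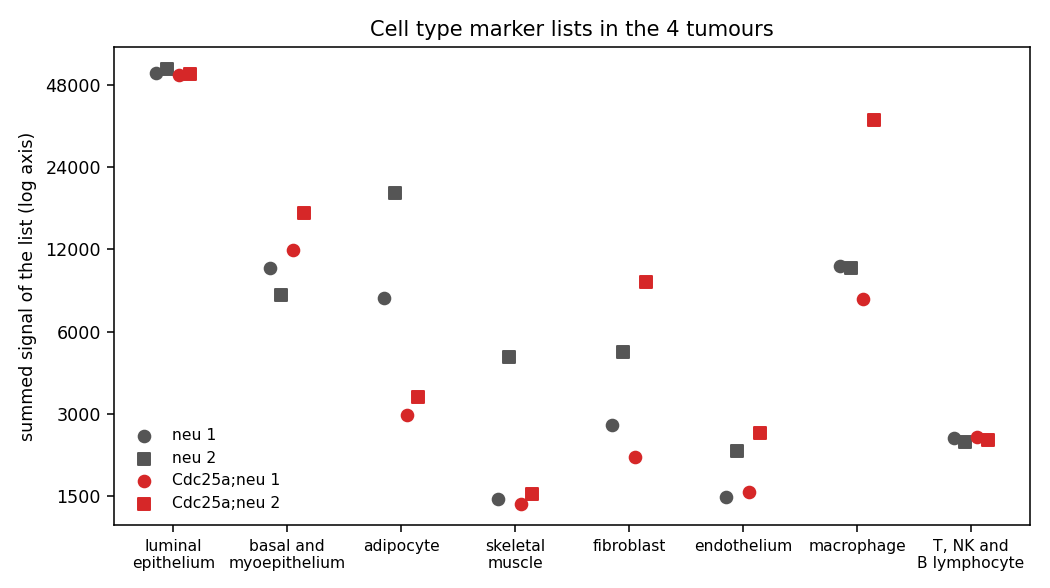
Summed signal of 8 cell type marker lists (vertical axis, log scale) in the 4 tumours, grey for neu, red for Cdc25a;neu, circles for pair 1 and squares for pair 2. The luminal sums, mostly Krt8 and Krt18, lie between 52390 and 54930, while neu tumour 2 is highest for fat cell and muscle markers and Cdc25a;neu tumour 2 for macrophage and fibroblast markers.

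Of 23 partners and targets of the estrogen and progesterone receptors, 22 were measured. Of these, 4 were higher and 4 lower on all 4 arrays, against 14.7% and 12.4% of all genes, and 0 passed the adjusted test. The median ratio was -0.02 in pair 1 and -0.03 in pair 2. Higher on both arrays of pair 1 and lower on both of pair 2 were 0 of the 22, against 5.91% of all genes, which is near the background. Ncoa3, a co-activator of nuclear receptors, had a ratio of 1.16 ± 0.33 by its brighter probe and of 0.01 by its other one. The brighter value lay among 123 genes or transcripts within 0.25 of it in both pairs, where the mirrored window held 15. Calca, the calcitonin gene, had 0.55 ± 0.24. Xbp1, a secretory pathway regulator and estrogen target, had -0.47 ± 0.25 (SD, n = 2 pairs throughout).

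All 17 genes of the prolactin and STAT5 list were measured. Of these, 2 were higher and 4 lower on all 4 arrays, against 14.7% and 12.4% of all genes. None passed the adjusted test, and the list's median was -0.05 in pair 1 and -0.09 in pair 2. Nmi, which interacts with STAT proteins, had a ratio of -0.53 ± 0.50 (SD, n = 2 pairs). Socs2, a feedback inhibitor of this pathway, had -0.35 ± 0.15, and Igf2 had -0.17 ± 0.03. Cish, a classical STAT5 target, had 0.10 in pair 1 and -0.29 in pair 2; it is named after its values were seen.

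Id2 and Stat5b were the 2 genes of that list that were higher on both arrays of pair 1 and lower on both of pair 2, which is 2 of 17 against 5.91% of all genes, and they are named for that reason. Id2, an inhibitor of basic helix-loop-helix factors needed for alveolar growth, had 0.60 in pair 1 and -0.74 in pair 2 by its brightest probe. A further probe gave 0.59 and -0.73, and its remaining probe -0.22 and 0.05. Stat5b lies next to Stat5a on chromosome 11 and is its close copy. Its brighter probe had 0.23 in pair 1 and -0.59 in pair 2, and its other probe 0.06 and -0.02. Probe sequences were not used here, so whether the Stat5a and Stat5b probes read each other's transcript was not tested. Stat3, the neighbour on the other side of Stat5a, had -0.31 in pair 1 and 0.30 in pair 2.

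**Figure D5:**
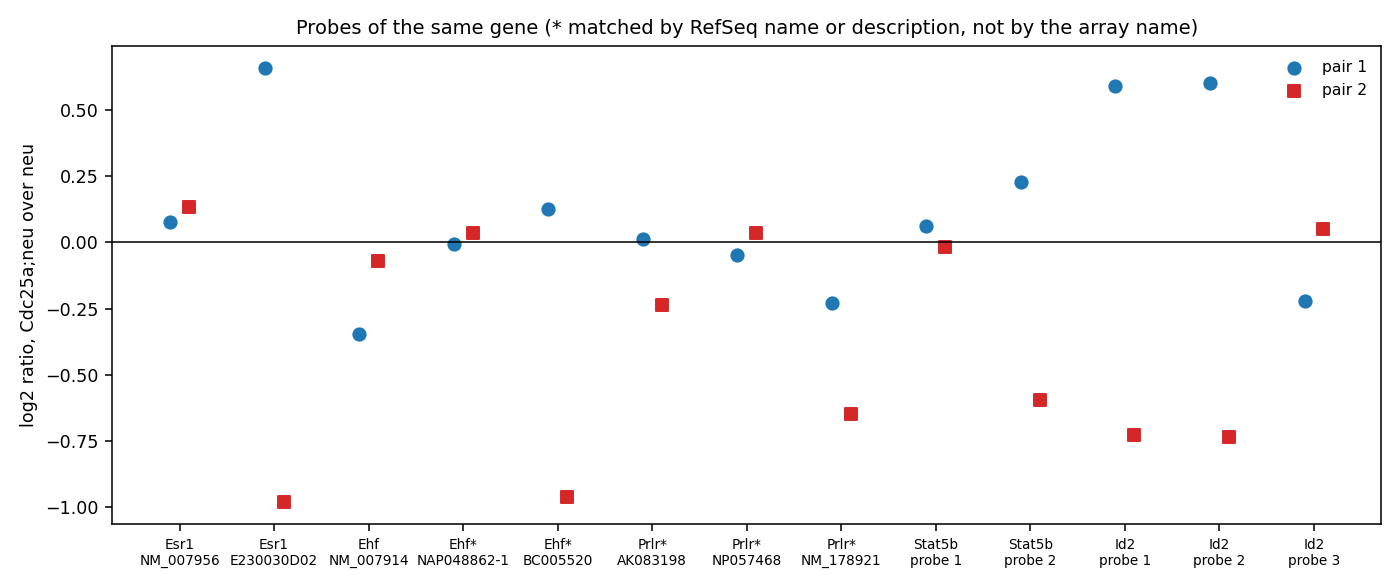
Log2 ratio in pair 1 (circles) and pair 2 (squares) of each kept probe of Esr1, Ehf, Prlr, Stat5b and Id2, with a star for probes that RefSeq or the array's description assigns to the gene. Of the Esr1 probes only the clone probe separates the pairs, at 0.66 and -0.98, and of the Id2 probes 2 of 3 do.

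Of 38 other regulators of mammary lineages, 35 were measured. On all 4 arrays 3 were higher and 12 lower, against 14.7% and 12.4% of all genes, and 0 passed the adjusted test. The medians were -0.04 in pair 1 and -0.05 in pair 2. Cited4, a relative of Cited1, had -1.04 in pair 1 and -1.03 in pair 2, and its other probe gave a mean of -0.99. Cited1 and Cited4 thus had mean ratios of opposite sign, 0.12 and -1.04. Notch1, a receptor that directs luminal fate, had -0.76 ± 0.13, and Spdef, an ETS factor of secretory epithelium, 0.51 ± 0.05 (SD, n = 2 pairs; adjusted p = 0.438 for each of Cited4, Notch1 and Spdef, limma).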

How the data were processed

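Each array's deposited file gives, per the file headers, the intensity of every spot in Cy3 and Cy5 with its local background. It also gives processed signals and the scanner's log10 ratio of Cy5 over Cy3, as deposited. The submitters' processing notes name Agilent Feature Extraction 7.2, and the headers 7.5.1. The authors' deposited value table tracks the natural log of red over green (slopes of 2.27 to 2.29 against the scanner's log10 ratio, correlations of 0.982 to 0.992). Its column medians were 0.0209, 7e-04, 0.0209 and 0.0078, and its centring is not given in the sources that were used. It served only as an alternative.

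Spot intensities were corrected by normexp (offset 50) and normalized by loess within each array, fitted to the 41534 non-control spots. Flagged outlier spots were left out after that, when the spots of a probe were averaged. Separate-channel levels were scaled by Aquantile. Probes were named through the RefSeq table of GRCm38.p6: of 41174 probes, 18421 matched by accession, 1502 by symbol and 936 by older symbol, and 20315 kept the array's name. Probes well above background in 1 channel on at least 2 of 4 arrays were kept (37177), each gene being read by its brightest kept probe. Ratios of swapped arrays had their sign turned, and the 2 arrays of a pair, which carry the same RNA extracts, were averaged, so n = 2 pairs. Mean log2 ratios were tested against 0, two-sided, with limma 3.58.1 (R 4.3.3), with Benjamini-Hochberg adjustment over all genes at 0.05. The test was tried on simulated data with known changes. The precision is limited by 2 mice per genotype, since the arrays of a pair are repeats of the same extracts. Named in each context list are the 3 genes with the largest mean ratio of 1 sign on all 4 arrays. The members, lists and alternatives were chosen with earlier results of these data known.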

Additional observations from a re-analysis of the deposited data

How the results depend on the processing

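All 14 alternatives that gave a test also called 0 of the members they tested. The members tested were the 7 genes, except in 2 alternatives. They were 6, without Foxa1, where both channels had to be well above background on all 4 arrays, and 8, with Pgr, without a filter. In 13 of the 14 alternatives 0 genes passed over the whole array, so the 0 of 7 is no evidence that these genes were unchanged. Median centring in place of loess gave 933 genes with an adjusted p under 0.05 over the whole array (0 with loess), 0 of the 7 genes with 1 sign on all 4 arrays (1 with loess) and a Foxa1 ratio of -0.037; the cause was not tested. Over the 13 alternatives that gave a value, Foxa1 ranged from -0.037 to 0.46 (the authors' deposited value table), and over 14 Ehf ranged from -0.34 to -0.082, both ends from leaving out 1 array of pair 1. Leaving out 1 array in turn gave Elf5 ratios from -0.023 to 0.08, and leaving out a pair gave -0.12 and 0.18, values with no test. Without the replicate block (separate-channel values per mouse), 1038 genes had an unadjusted p under 0.05, against 3151 with the hybridised pair as the block and 2560 to 3439 in the other settings. In the 14 settings that give pair values, the main one included, Stat5a ranged from 0.53 to 0.95 in pair 1 and from -1.29 to -0.83 in pair 2. Esr1 ranged from 0.37 to 0.89 and from -1.26 to -0.42, the smallest sizes being those of the mean of its probes. Gata3 lay between -1.39 and -0.87 in pair 2. Signal close to background limits Foxa1 and Pgr.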
